A study of Mus musculus with 10 samples.

Results

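The 36 genes described here encode aminoacyl tRNA synthetases, 20 of the cytosol and 16 of the mitochondrion, out of 26312 genes in the expression table. They were taken by name from a list of synthetase genes, with the digit 2 at the end of a name marking the mitochondrial enzyme, and all 36 were found in the table. All 36 also passed the filter on low values, a mean of at least 10 normalized reads over the libraries, which 15180 genes passed. The cells came from the mammary glands of female C57BL/6J mice aged 12 weeks and were sorted for strong EpCAM, weak CD49f, Sca-1 and absence of CD49b, a gate that holds hormone-sensing luminal cells. The mice carried the genotype RSK2(+/+), called WT here, or RSK2(-/-), called KO, and were sampled in estrus or in diestrus. RSK2 is a protein kinase that acts below ERK and is encoded by Rps6ka3. Estrus was sampled with 3 libraries per genotype and diestrus with 2 per genotype. The labels do not say how the allele was made or whether a library came from a single mouse or a pool. The spread behind each p-value is therefore that between libraries, which may be in part technical.

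A synthetase joins an amino acid to its tRNA, and the charged tRNA then brings that amino acid to the ribosome. The cytosol and the mitochondrion run separate protein synthesis, and most amino acids have a nuclear gene for each place, although Gars and Kars each serve both. Several cytosolic enzymes sit together in the multisynthetase complex, and Eprs joins the glutamyl and the prolyl enzyme in a single protein. Many cytosolic synthetase genes are known targets of ATF4, the transcription factor that cells make more of when amino acids run short.

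The normalized reads of a library added up to between 14108057 and 15307238. Rps6ka3 was not lower in the libraries labelled KO: it had 156 to 164 normalized reads in KO estrus and 128 to 137 in WT estrus (log2 difference 0.25, limma adjusted p = 0.350), and 156 to 165 in KO diestrus against 139 to 165 in WT diestrus. That value covers the whole gene, so it cannot check a deletion of part of it. The 8 hormone-sensing luminal markers (Esr1, Pgr, Prlr, Foxa1, Krt8, Krt18, Cited1 and Ly6a, which encodes the sort marker Sca-1) were all detected. They summed to between 269393 and 387907 per library, against 2405 to 5012 for 7 luminal progenitor markers and 334 to 1214 for 7 basal markers. A sum depends on how high the genes of its list are, so these sums do not measure purity. In bulk RNA, fewer cells of a type and less RNA per cell cannot be told apart.

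By their median, the cytosolic genes had the higher levels. Per kilobase of transcript, and as a mean of all 10 libraries, the median level was 489.4 normalized reads for the cytosolic genes and 123.8 for the mitochondrial ones. Wars, the tryptophanyl enzyme, had the highest mean of the cytosolic genes at 1605 per kilobase, followed by Vars (valyl) at 1408 and Nars (asparaginyl) at 1109. This order came from the KO groups: in WT estrus Vars had 1510 and Wars 1376 per kilobase, and in WT diestrus they had 1465 and 1464. The lowest were Iars (isoleucyl) at 141.1, Lars (leucyl) at 188.5 and Tars (threonyl) at 200.8. Among the mitochondrial genes, Lars2 (leucyl) stood at 4873, and the next were Fars2 (phenylalanyl) at 323.7 and Tars2 (threonyl) at 186.6. Mars2 (methionyl) was lowest at 7.3, below Pars2 (prolyl) at 23.4 and Wars2 (tryptophanyl) at 29.4. The place of Mars2 rests on a transcript of 11294 bases, against 2191 for Pars2. Not divided by length, the mean of Mars2 was above that of Pars2 (82.5 against 51.3 normalized reads). For 13 amino acids the list holds a single enzyme of each compartment, and the cytosolic gene had more reads per kilobase in 11 of these 13 pairs, with a median ratio of 3.683. The exceptions were Iars (ratio 0.908) and Lars (0.039). The order within some pairs differed by group: Iars was above Iars2 in KO diestrus (183 against 153.1), and Tars below Tars2 in KO estrus (133.3 against 173.6) and level with it in WT estrus (210.7 against 211.4).

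**Figure D1:**
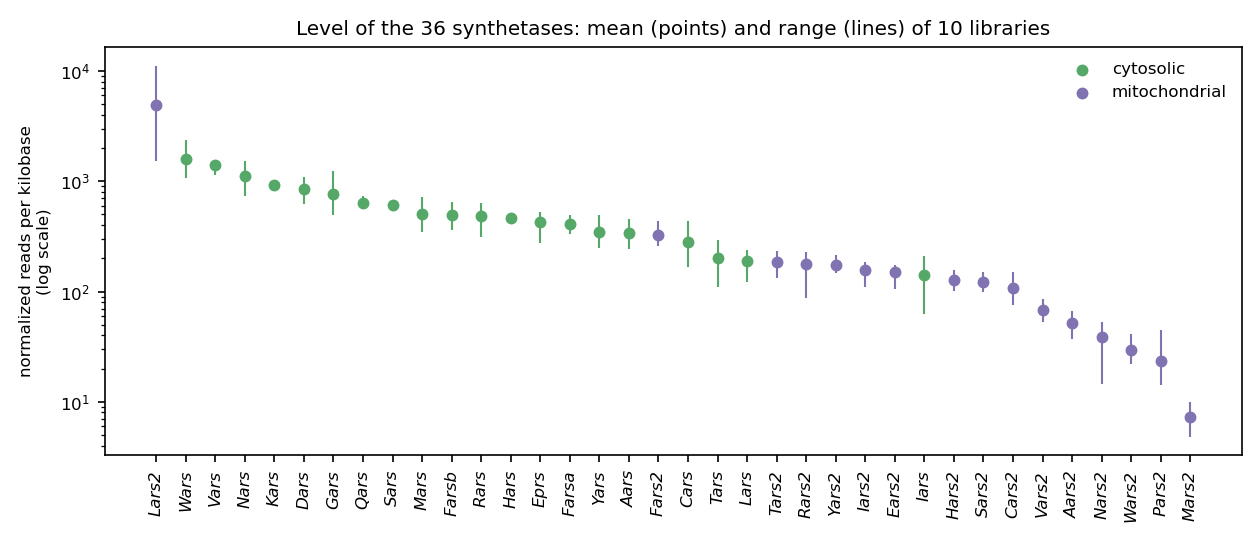
Normalized reads per kilobase of transcript (log scale) for each of the 36 synthetase genes, as the mean (point) and the range (line) of 10 libraries, in order of the mean. Cytosolic genes fill most of the left side with a median of 489.4, mitochondrial genes most of the right side with a median of 123.8, and Lars2 stands above all others at 4873.

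Most calls among the synthetases came from the comparison of the stages within the KO mice. In KO estrus, 9 of the 20 cytosolic genes fell relative to KO diestrus and 0 rose (limma, adjusted p under 0.05 over all tested genes), while 0 of the 16 mitochondrial genes was called in either direction. Over all tested genes, 8.95% were called lower and 7.67% higher in that comparison. The median log2 difference was -0.42 over the cytosolic genes, 0.06 over the mitochondrial ones and -0.01 over all tested genes. The differences ran from -1.16 to 0.20 for the cytosolic genes, of which 14 lay below 0 (50.7% of all tested genes did), and from -0.70 to 0.68 for the mitochondrial genes, of which 11 lay above 0 (49.3% of all tested genes). In 12 of the 20 cytosolic genes every KO estrus library lay below both KO diestrus libraries, against 26% of all tested genes. At an unadjusted p under 0.05, 3 mitochondrial genes were higher in KO estrus (Cars2, Sars2 and Vars2), against 16.1% of all tested genes.

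**Figure D2:**
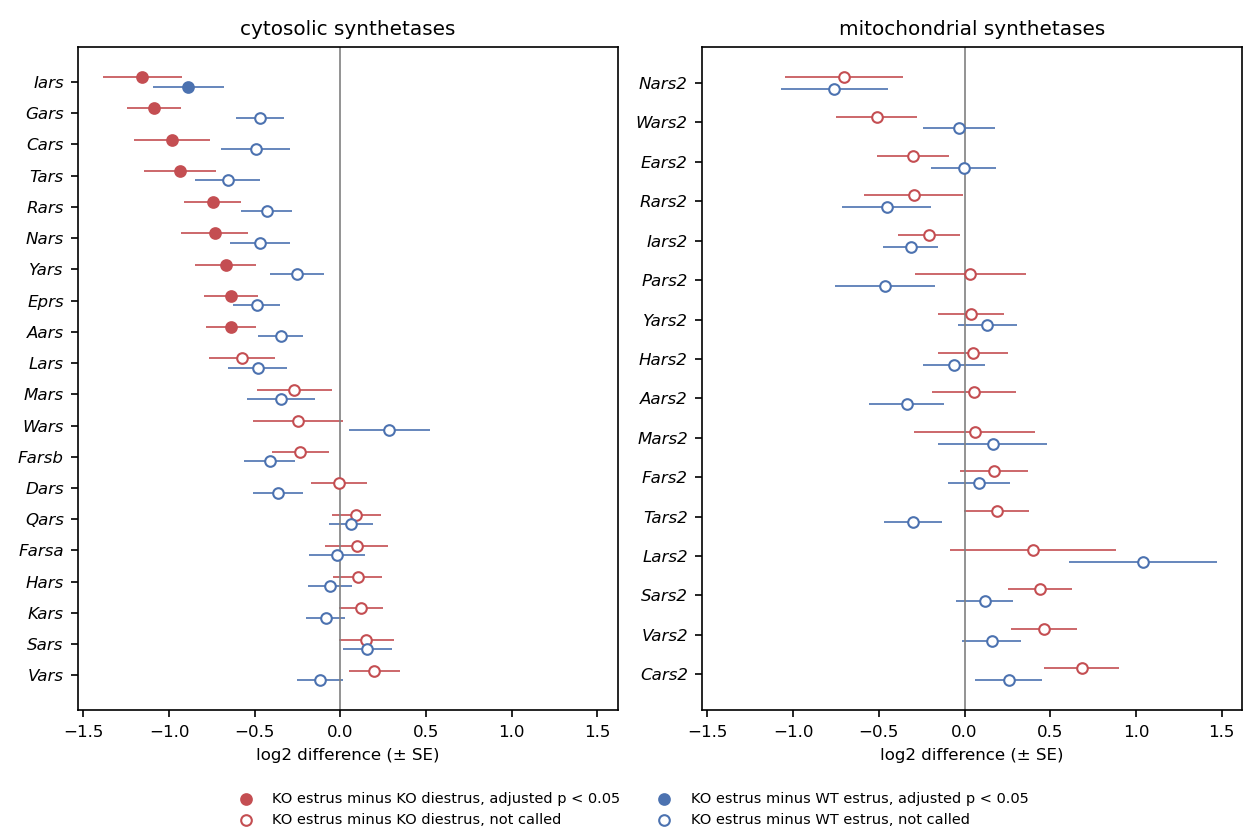
Log2 difference of each of the 36 synthetase genes in KO against WT at estrus and in estrus against diestrus within KO. Bars are ± SE, and filled points have an adjusted p under 0.05 (limma). In the stage comparison 9 cytosolic genes are filled and lie between -1.16 and -0.64, and no mitochondrial gene is filled.

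Gars, the glycyl synthetase (chr6:55038007-55079500, GRCm38), had the smallest adjusted p. Its 3 KO estrus libraries held 1175, 1303 and 1254 normalized reads and its 2 KO diestrus libraries 2383 and 2935, while WT estrus held 2002, 1488 and 1710 and WT diestrus 1933 and 2041. All KO estrus libraries lay below, and both KO diestrus libraries above, every WT library. The mean fell from 2659 ± 390 (SD, n = 2) in KO diestrus to 1244 ± 64.6 (SD, n = 3) in KO estrus, a log2 difference of -1.09 ± 0.16 (SE, limma adjusted p = 0.00458).

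Iars (chr13:49682100-49734267), which charges the isoleucine tRNA and belongs to the multisynthetase complex, had the largest fall. It held 275, 405 and 414 normalized reads in KO estrus and 682 and 938 in KO diestrus, against 562, 621 and 840 in WT estrus and 703 and 804 in WT diestrus. The KO estrus libraries were the lowest 3 of all 10, and the other groups overlapped. The log2 difference between the KO stages was -1.16 ± 0.23 (SE, limma adjusted p = 0.0103).

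Cars, the cysteinyl enzyme (chr7:143557230-143600090), had 566, 541 and 792 normalized reads in KO estrus and 1090 and 1398 in KO diestrus. Its WT libraries held 1025, 722 and 918 in estrus and 816 and 1121 in diestrus, so the third KO estrus library lay within the WT range. The log2 difference between the KO stages was -0.98 ± 0.22 (SE, limma adjusted p = 0.0153). Tars, the threonyl enzyme (chr15:11382301-11399665), had 443, 545 and 614 in KO estrus and 867 and 1186 in KO diestrus. With 957, 692 and 882 in WT estrus and 804 and 1052 in WT diestrus, its KO estrus libraries were below every other library. Its log2 difference was -0.94 ± 0.21 (SE, limma adjusted p = 0.0150).

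The other 5 called genes changed less, with log2 differences of -0.74 to -0.64. Rars (arginyl, in the complex) held 659, 753 and 894 normalized reads in KO estrus and 1227 and 1332 in KO diestrus (log2 difference -0.74, limma adjusted p = 0.0147). Nars (asparaginyl) held 2005, 2282 and 2579 against 3414 and 4194 (-0.73, adjusted p = 0.0281). Yars (tyrosyl) held 722, 751 and 957 against 1141 and 1433 (-0.67, adjusted p = 0.0270). None of these 3 genes overlapped between the KO stages. The KO estrus libraries of Nars also lay below all WT libraries (2635 to 3753), while Rars and Yars each had a KO estrus library inside the WT range. Eprs, the joined glutamyl and prolyl enzyme, held 1346, 1712 and 1738 against 2471 and 2469 (-0.64, adjusted p = 0.0203). Aars (alanyl) held 1410, 1612 and 1630 against 2224 and 2604 (-0.64, adjusted p = 0.0166). In both of these the KO estrus libraries were the lowest 3 of all 10: the WT libraries ran from 2092 to 2582 for Eprs and from 1815 to 2231 for Aars.

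**Figure D3:**
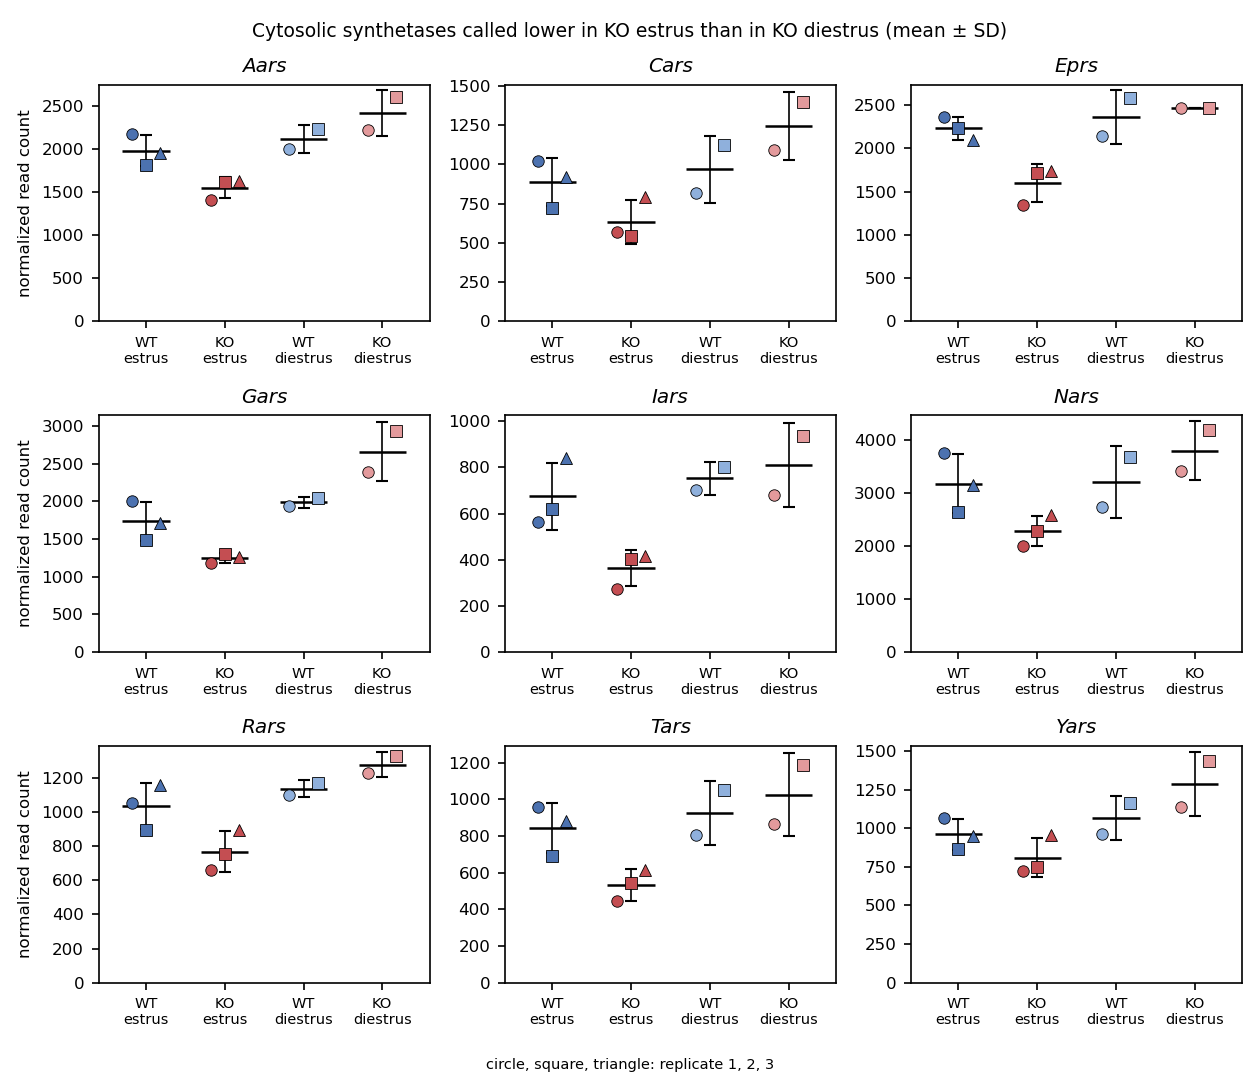
Normalized read counts of the 9 cytosolic synthetase genes called between the KO stages, with a point per library and the mean and SD of each group. In every panel the 3 KO estrus libraries lie below the 2 KO diestrus libraries, as for Gars with 1175 to 1303 against 2383 to 2935.

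The remaining 11 cytosolic genes were not called. Lars came closest, with 482, 657 and 573 normalized reads in KO estrus and 784 and 904 in KO diestrus (log2 difference -0.57, limma adjusted p = 0.0620). Vars, with 5326, 6454 and 5541 against 5371 and 4690, had a difference of 0.20 (adjusted p = 0.385), and Sars, the seryl enzyme, one of 0.15 (adjusted p = 0.552). Wars held 2251, 2725 and 4340 in KO estrus and 3402 and 3690 in KO diestrus, and its estrus libraries spanned those of diestrus. By structural class, 4 of 9 class I enzymes and 4 of 10 class II enzymes were called lower, with medians of -0.57 and -0.12 (Eprs joins both classes and is counted in neither). Of the 8 enzymes of the multisynthetase complex 3 were called lower (median -0.42), and of the 12 free enzymes 6 (median -0.44).

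The 9 calls rested on both KO diestrus libraries. Without KO diestrus 2, 0 of the 9 were called (adjusted p 0.0887 to 0.251), and without KO diestrus 1 only Gars was, although all 9 log2 differences stayed below 0 in both fits (-0.94 to -0.51 without the former, -1.39 to -0.64 without the latter). Over all tested genes the calls dropped from 2524 to 39 and 151 in these fits. Without KO estrus 1, 7 of the 9 were called. The libraries also differed along transcript length: the log2 level changed per doubling of length by -0.12, -0.03 and -0.08 in KO estrus, by 0.06 in each KO diestrus library, and by -0.03 to 0.04 in the WT libraries, relative to the mean of all libraries. The median transcript of the 9 called genes was 3222 bases long, against 2175 for the other cytosolic genes, 2868 for the mitochondrial ones and 2582 for all tested genes. With each library's trend on length and GC content removed, 5 of the 20 cytosolic genes were called lower, against 4.57% of all tested genes. These were Cars, Gars, Iars, Rars and Yars, all among the 9. The differences of all 9 lay below 0 (-1.11 to -0.31). Summed markers differed between the KO stages as well. The hormone-sensing luminal markers summed to 329942 to 340519 in KO estrus and 269393 to 298139 in KO diestrus. All 8 macrophage markers were in the table and summed to 584 to 826 in KO estrus and 432 to 435 in KO diestrus. The 3 of 5 lymphocyte markers in the table summed to 139 to 188 and 88 to 101, and the 6 fibroblast markers to 107 to 3101 and 94 to 117. No marker of these lists that was in the table was at 0 in every library, and the part of these markers in the result was not tested.

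The promoters of the called genes were examined because ATF4 binds, with a C/EBP partner, a known composite sequence. RefSeq promoters (GRCm38.p6, 250 bases before to 50 after the gene's start) were searched on both strands for TGATGNAAN, where N is any base. Of the 9 called genes, 6 had an entry and 5 of these held a match (Aars, Gars, Iars, Tars and Yars), while Eprs did not, and Cars, Nars and Rars had no entry. The match was absent from all 7 other cytosolic genes with an entry and from all 14 mitochondrial genes with one, and 4.5% of the promoters of 27025 genes held it. Of 14 further ATF4 targets with an entry, 4 held it. The search was chosen after the values were seen, and a match is a description of the letters, not a binding site. For each of these 5 genes a stretch of 30 bases around a match is given 5′ to 3′ on the gene's strand, with the match in capitals, and Asns, which encodes asparagine synthetase and is a standard ATF4 target, is added for comparison.
Gars, chr6:55037960-55037989 (+): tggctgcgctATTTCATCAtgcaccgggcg
Iars, chr13:49682126-49682155 (+): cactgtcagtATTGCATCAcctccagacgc
Tars, chr15:11399655-11399684 (-): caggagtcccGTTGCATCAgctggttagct
Aars, chr8:111033840-111033869 (+): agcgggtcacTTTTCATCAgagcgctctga
Yars, chr4:129189896-129189925 (+): cgagctcagcTGATGCAACccgacgggact
Asns, chr6:7693213-7693242 (-): cccagccacaTGATGAAACttcccgcacgc

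The match lies on the opposite strand in Gars, Iars, Tars and Aars, so it reads there as its reverse complement, and on the gene's own strand in Yars and Asns. Counted from the gene's start in RefSeq, it begins 31 bases before it in Gars and 16 before in Tars. The match shown for Aars begins 8 bases after the start, and those of Iars and Yars 6 and 3 bases after it. The whole stretch before the start of Gars, the gene with the smallest adjusted p, shows how near to the start the match sits (chr6:55037751-55038000, plus strand, match in capitals).
Gars upstream: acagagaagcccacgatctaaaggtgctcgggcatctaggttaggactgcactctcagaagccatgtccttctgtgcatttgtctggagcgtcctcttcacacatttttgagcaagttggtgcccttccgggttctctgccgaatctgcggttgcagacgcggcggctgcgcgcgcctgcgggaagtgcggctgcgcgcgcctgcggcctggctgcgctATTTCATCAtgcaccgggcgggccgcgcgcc

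The comparison of KO with WT at estrus used the same KO estrus libraries as the stage comparison, so the values of the 2 comparisons are not independent. Iars was the only synthetase called: its 275, 405 and 414 normalized reads in KO lay below the 562, 621 and 840 of WT, a log2 difference of -0.89 ± 0.21 (SE, limma adjusted p = 0.0408). Over all tested genes, 2.94% were called lower and 1.26% higher. These 637 calls became 73 without KO estrus 1, 67 without WT estrus 2 or WT estrus 3, and 104 to 172 without a diestrus library. This call was marginal. It was lost without KO estrus 1 (adjusted p = 0.116), WT estrus 2 (0.0879), WT estrus 3 (0.112), any single diestrus library (0.0634 to 0.0664) or with the length and GC trend removed (0.0789), with log2 differences of -1.01 to -0.70 over all alternatives. The macrophage markers summed to 584 to 826 in KO estrus and 324 to 615 in WT estrus, and the lymphocyte markers to 139 to 188 and 58 to 92, and their part in the result was not tested.

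The other cytosolic genes at estrus had smaller differences that missed the threshold. Of the 20, 17 lay below 0, against 51% of all tested genes, with a median log2 difference of -0.36, against -0.02 over the mitochondrial genes and -0.01 over all tested genes. Tars had a difference of -0.66 ± 0.19 and Eprs one of -0.49 ± 0.14 (SE, limma adjusted p = 0.0615 for each). Gars had -0.47 ± 0.14 (SE, adjusted p = 0.0700). At an unadjusted p under 0.05, 11 cytosolic genes were lower in KO, against 14% of all tested genes. In 8 of the 20 (Aars, Dars, Eprs, Farsb, Gars, Iars, Nars and Tars) every KO estrus library lay below every WT estrus library, against 13.1% of all tested genes. On the other side, Wars had a difference of 0.29 ± 0.24 (SE, adjusted p = 0.478), which dropped to 0.02 when KO estrus 3 was left out and to 0.12 for WT estrus 1, and reached 0.49 and 0.50 for KO estrus 1 and WT estrus 3. Sars had one of 0.16 (adjusted p = 0.523), with 0.09 to 0.27 over the libraries left out. The mitochondrial differences ran from -0.76 for Nars2 to 1.04 for Lars2, and 9 of 16 lay below 0. Nars2 held 55, 130 and 122 normalized reads in KO estrus and 135, 159 and 200 in WT estrus (limma adjusted p = 0.148). Its difference was -0.37 without KO estrus 1. Pars2 had a difference of -0.46 (adjusted p = 0.343) and Cars2 one of 0.26 (adjusted p = 0.434). KO estrus 1 was the lowest of all 10 libraries for 13 of the 20 cytosolic and 7 of the 16 mitochondrial genes, and KO diestrus 2 the highest for 8 cytosolic genes.

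At diestrus, 0 of the 36 genes was called between KO and WT by limma, where 0.0395% of all tested genes were, and 2 had an unadjusted p under 0.05, against 5.92%. These were Gars, with 2383 and 2935 normalized reads in KO against 1933 and 2041 in WT (log2 difference 0.41, adjusted p = 0.789), and Pars2, with 42 and 31 against 99 and 71 (-1.19, adjusted p = 0.468). The cytosolic median was 0.04 and the mitochondrial one -0.14. Of the mitochondrial genes 14 of 16 lay below 0, against 50.5% of all tested genes, and in 9 of 16 both KO libraries lay below both WT libraries, against 21.6%. Tars2 held 339 and 382 in KO and 510 and 475 in WT (-0.45, adjusted p = 0.836), and Ears2, the glutamyl enzyme of the mitochondrion, had the largest positive difference among the mitochondrial genes with a mean of at least 50 (0.27). Among the cytosolic genes the outer values were 0.41 for Gars and for Wars, -0.27 for Vars and -0.19 for Dars, the aspartyl enzyme. The fibroblast markers summed to 94 to 117 in KO diestrus and 580 to 648 in WT diestrus, and the macrophage markers to 432 to 435 and 569 to 639. The hormone-sensing luminal markers summed to 269393 to 298139 and 303287 to 361637. Erythroid markers went the other way, with 209 to 299 and 49 to 93. The part of these markers in the result was not tested.

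Between the stages in WT mice, 0 of the 36 synthetases and 0 of all tested genes were called by limma. At an unadjusted p under 0.05 there was 1 synthetase, Wars2, with 96, 106 and 134 normalized reads in estrus and 150 and 170 in diestrus (log2 difference -0.52), against 3.87% of all tested genes. The cytosolic median was -0.08 and the mitochondrial one -0.03. The largest falls of the 36 were those of the mitochondrial genes Lars2 (-0.71) and Pars2 (-0.70). Sars2 (0.185) and Cars2 (0.157) had the largest mitochondrial rises. Every WT estrus library lay below both WT diestrus libraries in 4 of 16 mitochondrial and 0 of 20 cytosolic genes. Of all tested genes, 8.99% did so. Gars (-0.21) and Iars (-0.18) had the lowest cytosolic differences in WT, where the same genes had -1.09 and -1.16 in KO, and Dars (0.17) and Kars, the lysyl enzyme (0.14), had the highest.

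The difference between the KO and the WT stage comparison was tested as the interaction of genotype and stage. It gave 0 calls by limma among the 36 genes and 0 among all tested genes. At an unadjusted p under 0.05, 8 cytosolic genes (Aars, Cars, Eprs, Gars, Iars, Nars, Rars and Tars) had a more negative stage difference in KO, against 7.49% of all tested genes, and 0 mitochondrial genes passed in either direction. The interaction of Gars was -0.88 ± 0.22 on the log2 scale (SE, limma adjusted p = 0.237) and that of Iars -0.98 ± 0.33 (adjusted p = 0.265). The cytosolic median was -0.37 and the mitochondrial one 0.12. Averaged over both stages, KO against WT gave 0 calls among the 36 genes by limma (0.665% of all tested genes were called), and 5 genes had an unadjusted p under 0.05, all lower in KO (Dars, Farsb, Iars, Pars2 and Tars2), against 8.38%.

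The compartments were also set against each other within each library. Each gene's log2 level was taken relative to its mean over the 10 libraries and averaged over the genes of a compartment. The cytosolic mean was -0.41, -0.20 and -0.11 in the 3 KO estrus libraries and 0.11 and 0.23 in the 2 KO diestrus libraries. The WT libraries lay above the KO estrus and below the higher KO diestrus library and overlapped by stage, with 0.14, -0.08 and 0.11 in estrus and 0.01 and 0.20 in diestrus. The mitochondrial mean without Lars2 was -0.25, 0.05 and -0.02 in KO estrus and -0.12 and -0.05 in KO diestrus, and these groups overlapped. The mean over all 16 mitochondrial genes, subtracted from the cytosolic mean, gave -0.20 ± 0.12 (SD, n = 3) in KO estrus and 0.25 ± 0.04 (SD, n = 2) in KO diestrus. It gave 0.05 ± 0.08 in WT estrus and -0.03 ± 0.16 in WT diestrus. By library, this difference was highest in the 2 KO diestrus libraries (0.22 and 0.28). The 2 diestrus groups differed more in the mitochondrial part. The mean of all 16 mitochondrial genes was -0.08 in KO diestrus and 0.13 in WT diestrus, and the cytosolic mean 0.17 and 0.10. No test was made of these means, because the genes are not replicates.

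**Figure D4:**
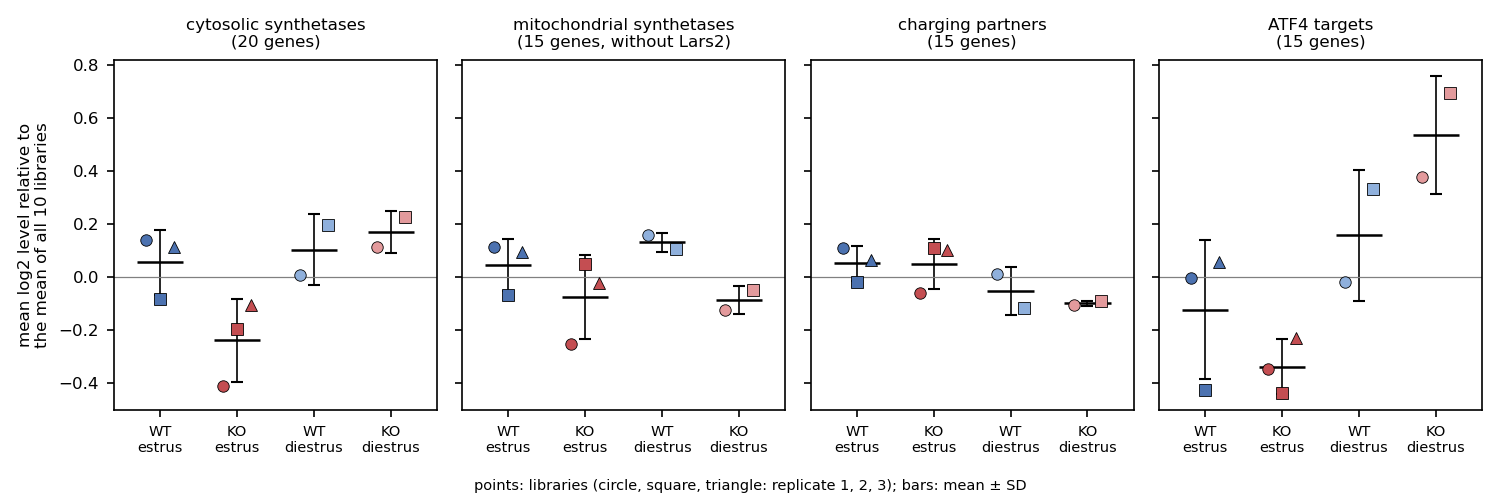
Mean log2 level of the cytosolic synthetases and of other gene lists in each of the 10 libraries, relative to the mean of all libraries. The cytosolic mean is lowest in the 3 KO estrus libraries (-0.41 to -0.11).

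The same contrast shows amino acid by amino acid. In 11 of the 13 pairs with a single enzyme in each compartment, the stage difference in KO was lower for the cytosolic than for the mitochondrial gene, with a median gap of -0.45 on the log2 scale. The exceptions were the histidyl and the tryptophanyl pair, Hars with Hars2 and Wars with Wars2. For KO against WT at estrus it was so in 8 of the 13 pairs, with a median gap of -0.28. The cysteinyl pair had opposite signs between the KO stages: Cars, above, had -0.98, and Cars2 held 225, 225 and 288 normalized reads in KO estrus and 144 and 160 in KO diestrus (0.68 ± 0.22, SE, limma adjusted p = 0.0513). Its KO estrus libraries were all higher, but the difference missed the threshold. It passed in the fits with a mean of at least 50 (adjusted p = 0.0422), with library weights (0.0272) and without WT estrus 2 (0.0389) or WT estrus 3 (0.0420), and Vars2 passed with library weights (0.52, adjusted p = 0.0370). Among the mitochondrial genes the most negative value in KO was that of Nars2 (asparaginyl), with 55, 130 and 122 against 132 and 185 (-0.70, adjusted p = 0.176). It was -0.31 without KO estrus 1 and -0.46 without KO diestrus 2, and was called with the replicate number as a block (-0.86, adjusted p = 0.0466). Wars2 followed with -0.51 (limma adjusted p = 0.149), and Vars2 had 0.465 in the main fit (adjusted p = 0.116).

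Lars2 (chr9:123366927-123462666), the mitochondrial leucyl enzyme, stood apart from the other 15. It held 43607, 23561 and 12439 normalized reads in KO estrus and 5986, 17746 and 13741 in WT estrus. The diestrus libraries lay closer together, with 18941 and 16607 in KO and 17877 and 19248 in WT. The highest library, KO estrus 1, was 7.285 times the lowest, WT estrus 1, and KO against WT at estrus gave a log2 difference of 1.04 ± 0.43 (SE, limma adjusted p = 0.154). The difference depended on single libraries: leaving out KO estrus 1 gave 0.59 (adjusted p = 0.444), leaving out WT estrus 1 gave 0.58 (0.381), and leaving out KO estrus 3 gave 1.50, which was called (0.0464).

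Some rows of ribosomal RNA had their extremes in the same libraries as Lars2, and others did not. Gm42418, a noncoding locus within a ribosomal RNA repeat, held 31670, 15141 and 4382 in KO estrus and 3843, 10478 and 7985 in WT estrus. mt-Rnr2, the large ribosomal RNA of the mitochondrion, held 76884, 37713 and 12333 in KO estrus and 10726, 28262 and 25153 in WT estrus. Lars2 and both of these rows were highest in KO estrus 1 and lowest in WT estrus 1. mt-Rnr1, the small ribosomal RNA of the mitochondrion, was also highest in KO estrus 1, with 5897, 2619 and 3025 in KO estrus, but it held 2561, 2295 and 1555 in WT estrus and was lowest in WT diestrus 2 at 985. Gm26917, from the same repeat as Gm42418, was lowest in KO estrus 3 at 4468. The part of ribosomal RNA reads in the value of Lars2 was not tested. Lars2 shares no exon base with another annotated gene. Its cytosolic counterpart Lars did not follow it: KO estrus 1, the highest library of Lars2, was the lowest of Lars at 482.

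**Figure D5:**
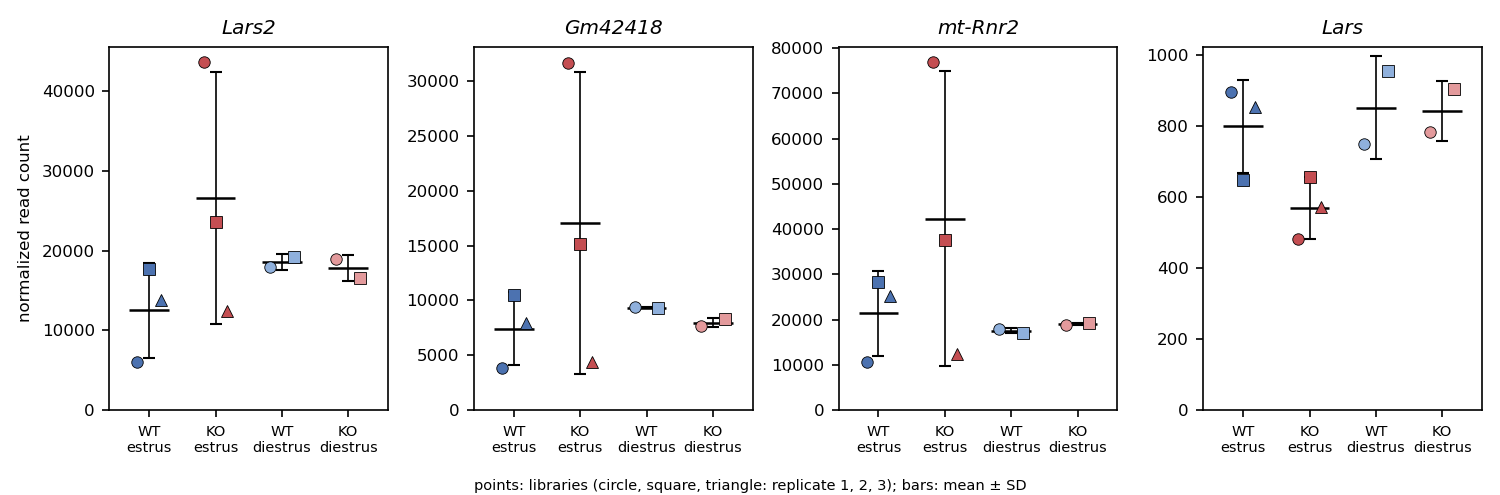
Normalized read counts of Lars2, of Gm42418 and mt-Rnr2, which are rows of ribosomal RNA, and of the cytosolic Lars, with a point per library and the mean and SD of each group. Lars2, Gm42418 and mt-Rnr2 are each highest in KO estrus 1 (43607, 31670 and 76884), where Lars is lowest (482).

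Genes that work with the synthetases did not share a direction. Of 15 partners of tRNA charging (scaffold proteins of the complex, editing enzymes, the amidotransferase that makes glutamine tRNA in mitochondria, and others), 4 rose and 1 fell in KO estrus relative to KO diestrus, and 0 was called between KO and WT at estrus (limma). Of all tested genes, 7.67% rose and 8.95% fell between the KO stages, and 1.26% rose and 2.94% fell in KO against WT at estrus. The 4 were the amidotransferase subunits Gatb (log2 difference 0.67, adjusted p = 0.0340) and Gatc (0.78, adjusted p = 0.0385), and the editing enzymes Aarsd1 (0.67, adjusted p = 0.0268) and Dtd2 (0.89, adjusted p = 0.0148). The 1 was Sepsecs, which makes the selenocysteine tRNA (-0.76, adjusted p = 0.0167). Apart from Gatb, these 5 were chosen after their values were seen. Pstk, which acts on the selenocysteine tRNA before Sepsecs, had 394 ± 52.8 normalized reads in KO estrus and 549.3 ± 46.7 in WT estrus (SD, n = 3 each), a log2 difference of -0.48 (adjusted p = 0.0700).

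Of 36 genes for tRNA synthesis, processing and export, 35 were tested and Rpp25 was not. Between the KO stages 3 rose and 7 fell, and between KO and WT at estrus 2 rose and 3 fell (limma), with medians of -0.12 and -0.15. Over all tested genes these shares were 7.67% and 8.95% between the KO stages, and 1.26% and 2.94% at estrus. Xpot, which exports tRNA from the nucleus, fell from 518.7 ± 7.23 normalized reads in WT estrus to 309.3 ± 33.5 in KO estrus (SD, n = 3 each), a log2 difference of -0.75 ± 0.14 (SE, adjusted p = 0.0241), and the difference between the KO stages was -1.18 (adjusted p = 0.00356). Trnt1, which adds the CCA end to which the amino acid is joined, fell in KO estrus relative to WT (-0.76, adjusted p = 0.0304), as did Polr3b, a core subunit of RNA polymerase III (-0.80, adjusted p = 0.0414). The 2 that rose, Pop5 (0.56, adjusted p = 0.0427) and Rpp21 (0.79, adjusted p = 0.0407), are subunits of ribonuclease P, which trims the leading end of tRNA precursors. Polr3b, Pop5 and Rpp21 lay as near the threshold as Iars, and the calls of these genes were not followed through the alternatives. Over all tested genes, the 637 estrus calls became 177 with the length and GC trend removed. Transcripts of Pop5 and Rpp21 have 1025 and 729 bases, and those of Xpot, Trnt1 and Polr3b 6005, 2283 and 4975. The part of length in these calls was not tested.

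Of 15 further genes of the ATF4 response to amino acid shortage, 6 fell in KO estrus relative to KO diestrus and 0 rose (limma), with a median log2 difference of -0.73, where 8.95% of all tested genes fell and 7.67% rose. The folate enzyme Mthfd2 had the largest difference, from 1054 ± 230 normalized reads in KO diestrus (SD, n = 2) to 220.7 ± 25.5 in KO estrus (SD, n = 3, log2 difference -2.24, adjusted p = 0.00357). Psat1 of serine synthesis (-2.08, adjusted p = 0.00969), the regulators Trib3 (-1.50, adjusted p = 0.00778) and Sesn2 (-1.25, adjusted p = 0.00482), the amino acid transporter Slc38a2 (-1.03, adjusted p = 0.0116) and Asns (-0.73, adjusted p = 0.0247) fell too. Apart from Slc38a2, these were chosen after their values were seen. The Atf4 transcript itself had 5543 normalized reads in KO estrus and 6231 in KO diestrus (-0.19, adjusted p = 0.522). Between KO and WT 0 of the 15 was called by limma at estrus or at diestrus, with medians of -0.26 and 0.33. At an unadjusted p under 0.05, 3 were lower in KO at estrus and 4 higher in KO at diestrus, against 14% and 2.55% of all tested genes.

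The counts of some synthetases may hold reads of a neighbour. Exons of 13 of the 36 genes overlap those of another gene, 11 of them one with a mean of at least 10 normalized reads, and the sources used here do not say whether the counting used strand. Among the called genes, Aars shares 1326 bases with Exosc6 on its own strand and Yars 30 bases with C77080. Cars2 shares 422 bases with Naxd, and Vars2 465 with Gm20483.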

How the data were processed

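Total RNA of sorted cells was sequenced in 10 libraries. The submitters' processing notes name STAR, HTSeq, DESeq2 and mm10. Versions, annotation and strand use are not given in the sources used here. The authors deposited a score for each gene in each library, a read count normalized by them and rounded to whole numbers, not divided by length, so count models were not used and depth is known only as totals of normalized reads (14108057 to 15307238).

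Symbols, positions and transcript lengths came from GENCODE M21 (GRCm38), which matched 26249 of 26312 genes. For 15180 genes with a mean of at least 10, the means of the 4 groups were fitted to log2(value + 1) with limma 3.58.1 (R 4.3.3), with a trend in the spread. The p-values are two-sided, with Benjamini-Hochberg adjustment across every tested gene and a threshold of 0.05. Fold changes of low genes are understated by the added 1, and groups of 2 libraries borrow their spread from the others. The fit was tested on simulated data. Python 3.11.15 with matplotlib 3.10.9 made the figures.

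Groups came from the genotype and title labels. The titles of the KO libraries begin with KO and give RSK2(-/-), but also hold the letters WT before the stage. The 36 genes and the other gene lists (charging partners, tRNA synthesis, ATF4 targets, markers of 9 cell types) were chosen with earlier results of these data known. The naming rule took every called synthetase, per genotype or stage contrast the 2 genes of each compartment with the largest rise and fall at a mean of at least 50, the 3 highest and 3 lowest per kilobase, called genes of the other lists in KO against WT at estrus (otherwise the 2 highest), and Rps6ka3. A further gene that the rule named and a promoter stretch are not reported here. Other names are examples from counts. The alternatives were pseudocounts of 0.5 and 5, filters at 0 or 50, 2 other scalings, no trend, library weights, a replicate block, the compared groups alone, removal of the length and GC trend, and each library left out.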

Additional observations from a re-analysis of the deposited data

How the results depend on the processing

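Across the alternatives, the cytosolic median stayed below 0 in KO estrus against KO diestrus (-0.55 to -0.30) and in KO against WT at estrus (-0.42 to -0.26). The number of synthetases called between the KO stages was 9, 5 with the length and GC trend removed, and 0 to 10 with a library left out. At estrus the 1 call became 0 with no filter, equal totals, no trend, library weights, the compared groups alone, or the length and GC trend removed, and 0 to 2 with a library left out. The gap between the compartments' medians in the KO stage comparison was -0.48, -0.34 with the length and GC trend removed and -0.61 to -0.30 with a library left out. That gap at estrus was -0.34, -0.19 with the trend removed, and in the interaction -0.49, -0.34 with the trend removed and -0.72 to -0.41 with a library left out. Library weights gave mitochondrial medians of 0.062 at estrus and 0.22 in the interaction. With a library left out, mitochondrial medians were -0.113 to 0.019 at estrus and 0.076 to 0.220 in the interaction, and cytosolic ones -0.079 to 0.176 (KO against WT at diestrus), -0.188 to 0.079 (WT stages) and -0.50 to -0.26 (interaction). The gap was then 0.069 to 0.292 (KO against WT at diestrus) and -0.20 to 0.14 (WT stages). Of 39 named values, Fars2 alone changed sign, at diestrus, from 0.004 to -0.013 without KO diestrus 1 and -0.092 without WT diestrus 2, with a range of -0.092 to 0.100 over the libraries left out. The cause was not tested.

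Replicate numbers were shared by the groups. Same-numbered estrus libraries of KO and WT correlated in their deviations from the group means by 0.187, 0.083 and 0.031. Differently numbered ones correlated by -0.147 to 0.079. The deviations within a group add up to 0, so these values cannot decide whether the numbers pair the libraries. With the replicate block, 11 synthetases were called between the KO stages, Nars2 among them, and 1 between KO and WT at estrus, and the compartments' gap between the KO stages was -0.64. Over all genes, the 637 calls at estrus became 89 without a filter, 44 without the trend, 229 with weights, 996 with the block, 23 with the groups alone and 177 with the length and GC trend removed. The 2524 between the KO stages became 1626 without a filter, 3884 with weights and 1284 with the trend removed. Equal totals turned the split at estrus from 191 higher and 446 lower to 271 and 303, and quantile normalization to 394 and 422. Groups of 2 and 3 libraries limit what can be called.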
